A study of Mus musculus with 7 samples.

Results

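Neurofilaments, alpha-internexin and peripherin are the intermediate filament proteins of neurons, and the 5 genes that encode them, Nefl, Nefm, Nefh, Ina and Prph, were followed in the mouse cerebral cortex. The genes were chosen by name and not by a rule on their measured values, although earlier results of these data were known. All 5 were found among the 36666 rows of the gene table and all 5 passed the filter on low values, which left 22828 rows tested. The exon table, of 86425 rows, held 9 exons of 3 of the genes, namely 4 of Nefl, 3 of Nefm and 2 of Ina. The study compared cerebral cortex of young adult C57BL/6 mice (3 samples) with cerebral cortex of C57BL/6 embryos at embryonic day 17 (4 samples), without any stated treatment or altered allele, to follow the transcriptome over cortical development. Libraries of mRNA were sequenced, and each sample held 18443947 to 23606205 reads in genes. The labels do not say whether a sample was 1 animal, so the tests measure the spread between these samples.

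Neurofilaments fill the axon as bundles of long rods and set how wide it grows, and with that how fast it conducts. The light chain NF-L, from Nefl, forms the core of the filament, and the medium and heavy chains NF-M and NF-H, from Nefm and Nefh, join it with long tails that stand out from the rod and carry many phosphate groups. Alpha-internexin, from Ina, appears early in developing central neurons and can form filaments alone or with the neurofilament chains. Peripherin, from Prph, is the related protein of peripheral, sensory, autonomic and some brainstem neurons.

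The makeup of these mRNAs differed between the stages. Adult cortex had higher levels of mRNA of the 3 neurofilament chains, and a lower level of internexin mRNA, than embryonic cortex. The fold was highest for the heavy chain, which had the lowest adult level of the 3 chains. Levels are given as reads per 1000000 reads in genes (CPM). Differences are adult minus embryonic means of the deposited values, whose scale follows log2, so that 1 unit is close to 2-fold for well read genes. Of the 5 genes, 4 were called higher in adult cortex and 1 lower at an adjusted p under 0.05 in limma. Among all tested rows 69.7% were called, 35.8% higher and 33.9% lower, so a call alone was common at these stages. The rows called numbered 8180 higher and 7736 lower, and 7001 higher and 9047 lower after centring each sample on its median. No member had adult and embryonic samples that overlapped, and the same held for 68.9% of tested rows, 35.7% with the adult higher and 33.2% with the adult lower. In bulk tissue, fewer cells of a type and less RNA per cell cannot be told apart.

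Nefl, the light chain, had 342, 333 and 386 CPM in adult samples 1 to 3, against 49.4, 41.2, 53.3 and 49.8 CPM in embryonic samples 1 to 4. Every adult sample was far above every embryonic sample. The ratio of the means was 7.31, and the difference was 2.93 (SE 0.09, 95% interval 2.73 to 3.13, adjusted p = 4.96e-12 in limma). In the GRCm38 annotation the gene lies on the plus strand of chromosome 14, from 68083863 to 68089095.

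Nefm, the medium chain, is the neighbour of Nefl on the minus strand of chromosome 14, with its main transcript from 68119283 to 68124846 (GRCm38). It had 368, 445 and 461 CPM in the adult samples, against 125, 97.2, 123 and 104 CPM in the embryonic samples. The groups were again well apart, although the ratio of the means, 3.78, was lower than for Nefl. The difference was 2.0 (SE 0.11, 95% interval 1.77 to 2.23, adjusted p = 9.64e-10 in limma). The GENCODE M21 annotation gives Nefm a second, longer transcript that runs across Nefl on the opposite strand. No source used here says that reads were counted by strand, and without strand the reads of such a transcript and of Nefl cannot be told apart.

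Nefh, the heavy chain that appears last in maturing axons, had 100.1, 119 and 95.5 CPM in the adult samples, against 2.93, 2.35, 2.96 and 2.17 CPM in the embryonic samples. The embryonic levels rest on 47 to 63 reads per sample and the adult levels on 2171 to 2815 reads. The ratio of the means was 40.3 and the difference 5.12 (SE 0.13, 95% interval 4.85 to 5.40, adjusted p = 5.44e-13 in limma). This was the 125th highest of the 22828 differences, whereas Nefl stood at 934 and Nefm at 2215. Near the values of Nefh 1 doubling of reads moved the deposited scale by 0.94, so the difference slightly understates the fold. Nefh lies on the minus strand of chromosome 11, from 4938754 to 4948064 (GRCm38).

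Ina went the other way. Internexin mRNA was at 223, 232 and 245 CPM in the adult samples, against 411, 435, 434 and 429 CPM in the embryonic samples. The groups did not overlap and each was tight, with 233 ± 11.4 CPM in adult and 427 ± 11.3 CPM in embryonic cortex (SD, n = 3 and n = 4). The difference was -0.79 (SE 0.07, 95% interval -0.93 to -0.64, adjusted p = 1.60e-07 in limma). Ina remained well expressed in the adult, at rank 794 among the rows of the gene table, against rank 248 in the embryo. The gene lies on the plus strand of chromosome 19, from 47014698 to 47025327 (GRCm38), and 456 bases of its exons lie within Nt5c2 on the other strand, so reads there cannot be assigned with certainty.

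Prph, on the plus strand of chromosome 15 from 99055181 to 99058973 (GRCm38), was barely read at either stage. It had 2.44, 3.05 and 1.5 CPM in the adult samples, from 34 to 72 reads, against 1.41, 1.20, 1.22 and 0.924 CPM in the embryonic samples, from 20 to 27 reads. The lowest adult and the highest embryonic sample nearly met, and their exact 95% Poisson intervals, which cover counting error only, ran from 1.04 to 2.09 CPM and from 0.921 to 2.07 CPM. The difference was 0.83 (SE 0.22, 95% interval 0.35 to 1.31, adjusted p = 0.0041 in limma). At so few reads 1 doubling moved the deposited scale by 0.81.

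Promoter sequence was at hand for the 1 gene that fell, Ina, and for Prph, the scarcest of those that rose, as the RefSeq windows of GRCm38.p6 from 250 bases before to 50 bases after the start of transcription. They are printed 5′ to 3′ on the plus strand, the strand of both genes, with capitals for matches to a TATA box (TATAAA) or a GC box (GGGCGG) on either strand. The window of Ina is chr19:47014431-47014730 and that of Prph is chr15:99054924-99055223.
Ina: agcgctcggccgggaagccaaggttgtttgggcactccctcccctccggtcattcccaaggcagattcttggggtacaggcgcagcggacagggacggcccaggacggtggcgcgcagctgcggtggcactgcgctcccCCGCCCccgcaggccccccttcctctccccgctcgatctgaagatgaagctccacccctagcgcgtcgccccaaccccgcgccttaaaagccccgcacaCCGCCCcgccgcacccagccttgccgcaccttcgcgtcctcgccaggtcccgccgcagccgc
Prph: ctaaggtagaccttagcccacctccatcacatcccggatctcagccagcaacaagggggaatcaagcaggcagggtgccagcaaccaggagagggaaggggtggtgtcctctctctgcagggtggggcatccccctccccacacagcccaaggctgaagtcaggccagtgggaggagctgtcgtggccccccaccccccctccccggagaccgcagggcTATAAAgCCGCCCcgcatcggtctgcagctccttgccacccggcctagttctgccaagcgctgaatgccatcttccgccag

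Both windows were rich in G and C, with 71.7% in Ina and 64.7% in Prph, against a median of 52.7% over 32851 RefSeq windows of this length. Prph held 1 TATA box that began 31 bases before the start, and 1 GC box that began 24 bases before it. Ina held 2 GC boxes and no match to TATAAA. Of all windows, 13.6% held a TATA box and 35.7% a GC box by the same search on both strands. An E-box (CANNTG) was found in Ina and not in Prph, against 72.3% of all windows, and the cyclic AMP element TGACGTCA was in neither, against 1.79%. No match says only that these letters are not in the window.

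**Figure D1:**
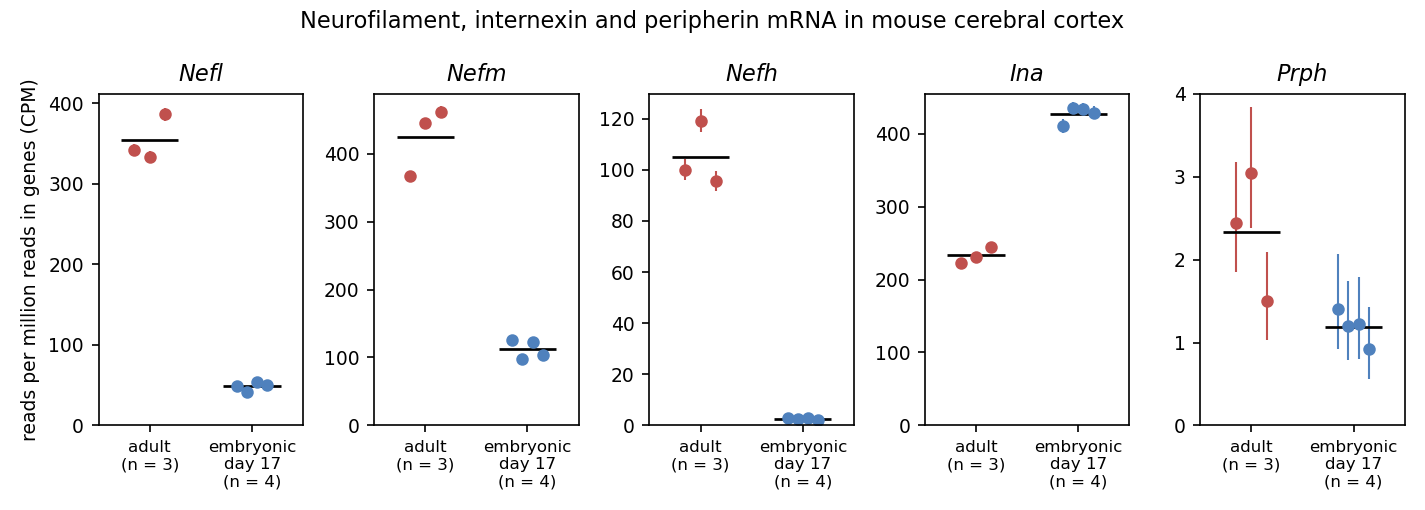
Level of each gene in every sample, in reads per 1000000 reads in genes (CPM, linear axes starting at 0), with adult samples in red and embryonic day 17 samples in blue. Points are samples with exact 95% Poisson intervals of the reads, and horizontal lines are group means. Nefl, Nefm and Nefh stand high in all 3 adult samples, Ina stands high in all 4 embryonic samples, and the intervals of Prph overlap between the groups.

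Markers of neurons from outside the cortex were set beside Prph. A list of 10 genes of monoaminergic, cholinergic, sensory and autonomic neurons, which use peripherin outside the cortex, had 9 genes in the table and 7 tested, of which 5 rose and 2 fell in the adult. Its summed level was 15.8, 20.8 and 11.0 CPM in adult samples 1 to 3, against 15.6, 15.4, 8.52 and 14 CPM in embryonic samples 1 to 4. Adult sample 2 was the highest and adult sample 3 the lowest of the adult samples for this sum, as for Prph, an order of 3 samples only. Among embryonic samples the sum was lowest in sample 3, whereas Prph was lowest in sample 4. The sums overlapped between the stages, whereas the levels of Prph did not. Isl1, 1 of the 2 genes that fell, made up most of the embryonic sums. It had 2.85 ± 0.696 CPM in adult and 11.6 ± 3.18 CPM in embryonic cortex (SD, n = 3 and n = 4). The median difference of the tested genes was 2.15, so the sums do not show how most of the list moved. The highest of these genes in the adult was Th, of an enzyme in the synthesis of dopamine. Th had 4.05 ± 1.73 CPM in adult and 0.482 ± 0.178 CPM in embryonic cortex (SD, n = 3 and n = 4). Phox2a, of autonomic neurons, had no reads in the adult samples. The part of such cells in the level of Prph was not tested.

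Because genes differ in length, levels were compared between genes per kilobase of the main GENCODE M21 transcript. In adult cortex the order was the same in all 3 samples. Nefm came first with 127 ± 15 CPM per kb, followed by Nefl with 105 ± 8.39, Ina with 72.0 ± 3.51, Nefh with 26.3 ± 3.15 and Prph with 1.33 ± 0.446 CPM per kb (SD, n = 3). The ranges of Nefm and Nefl over samples overlapped, although Nefm was the higher within each sample. Nefm had 110, 133 and 138 CPM per kb in adult samples 1 to 3, against 98.5 to 114 for Nefl. The difference between these genes was not tested. In embryonic cortex Ina led in all 4 samples with 132 ± 3.48 CPM per kb, well above Nefm with 33.7 ± 4.14 and Nefl with 14.3 ± 1.52 CPM per kb (SD, n = 4). Nefh and Prph shared the bottom there, with 0.652 ± 0.101 and 0.676 ± 0.114 CPM per kb, and their order changed between samples.

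Summed over the 5 genes, the level was 332 ± 23.4 CPM per kb in adult and 181 ± 4.70 CPM per kb in embryonic cortex (SD, n = 3 and n = 4). Ina made up 21.7 ± 0.595% of this sum in adult samples, against 72.8 ± 2.56% in embryonic samples. Nefm made up 38.3 ± 2.08% in adult samples, against 18.6 ± 1.99% in embryonic samples. Nefl made up 31.6 ± 1.92% in adult samples, against 7.90 ± 0.684% in embryonic samples. The heavy chain gene Nefh made up 7.95 ± 1.09% in adult samples, against 0.359 ± 0.0495% in embryonic samples. The makeup was thus led by internexin in each embryonic sample and by the light and medium chains in each adult sample. Transcript lengths come from an annotation that may not be the one the reads were counted on, which bears on the order of levels but not on the comparison of stages for 1 gene.

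**Figure D2:**
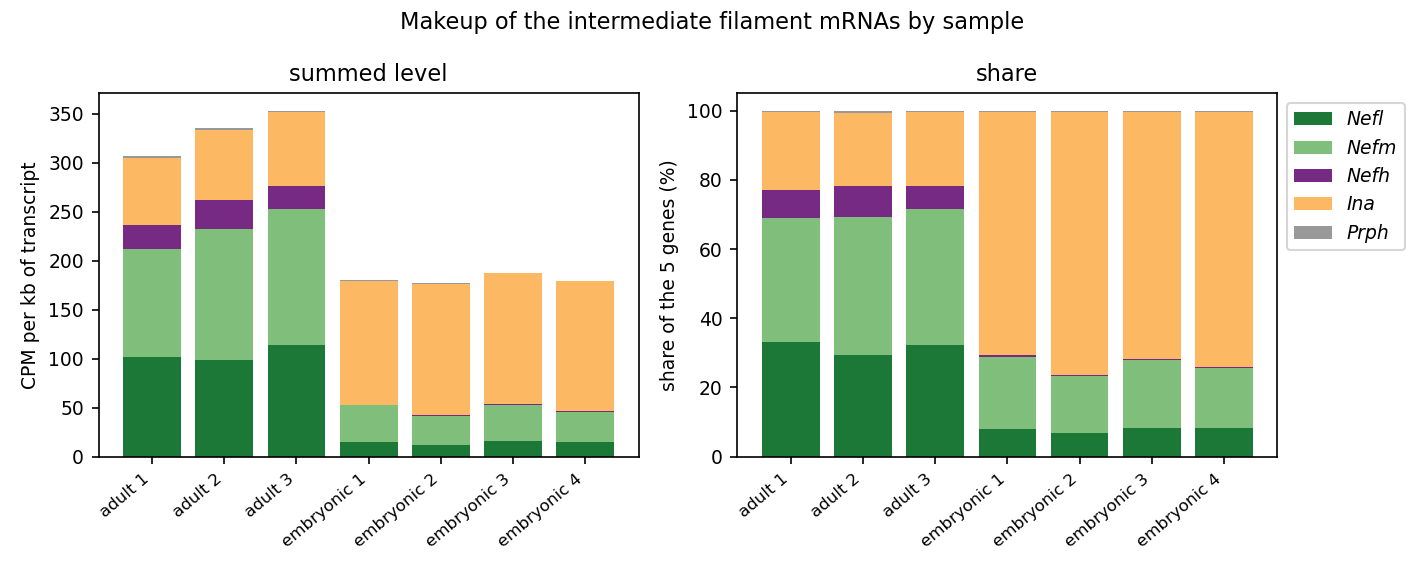
Summed level of the 5 genes in CPM per kb of transcript (left) and the share of each gene in that sum in percent (right), 1 bar per sample with the adult samples first. The Ina part is between 21.3 and 22.4% of each adult bar and between 70.2 and 75.9% of each embryonic bar.

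The balance between subunits was also taken within each sample as a ratio of reads to Nefl, which needs no scaling between samples. Nefh had 0.293, 0.358 and 0.247 reads per read of Nefl in adult samples, against 0.0593, 0.0570, 0.0556 and 0.0436 in embryonic samples. The heavy chain was more abundant relative to the light chain in every adult sample, and on the deposited scale the ratio differed by 2.19. Nefm, by contrast, had 1.07, 1.34 and 1.19 reads per read of Nefl in adult samples, against 2.54, 2.36, 2.30 and 2.09 in embryonic samples, a difference of -0.94. Ina had 0.651, 0.696 and 0.635 reads per read of Nefl in adult samples, against 8.32, 10.6, 8.14 and 8.62 in embryonic samples, a difference of -3.72. Prph had 0.00672 ± 0.00267 reads per read of Nefl in adult samples, against 0.0248 ± 0.00497 in embryonic samples (SD, n = 3 and n = 4), a difference of -2.10. For all 4 ratios the groups did not overlap. Nefl itself was higher in the adult, with a ratio of the means of 7.31, so a gene that changed little would also fall relative to it. How many other rows would give ratios to Nefl without overlap was not counted. A two-sided exact permutation test gave p = 0.0571 for each (adjusted over the 4 ratios, p = 0.0571), the smallest p that 3 against 4 samples allow, so this test could not pass 0.05.

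**Figure D3:**
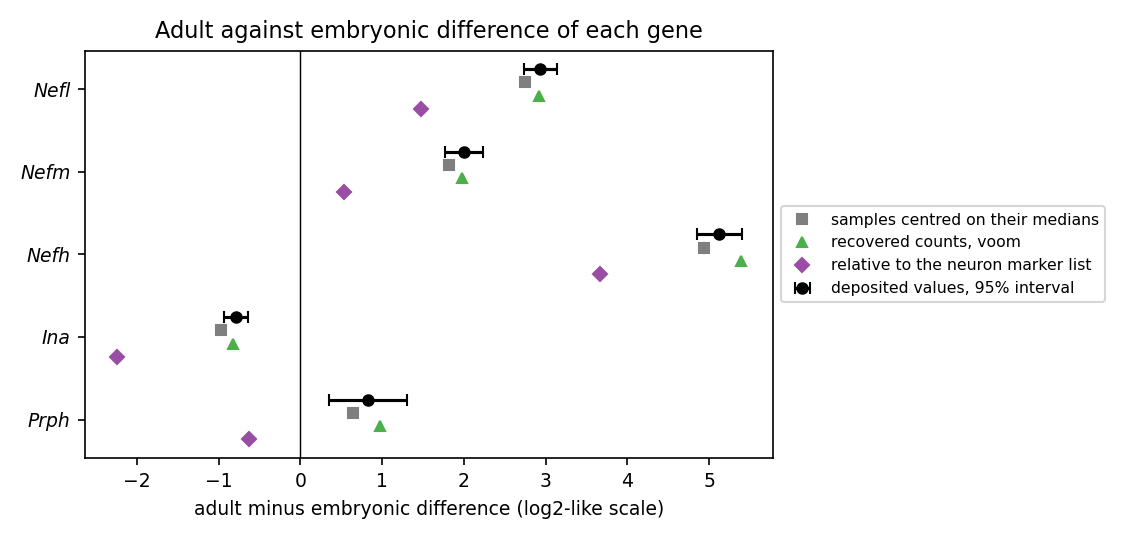
Adult minus embryonic difference of each gene on the log2-like scale, from the deposited values with 95% intervals (black) and under 3 other scalings. All scalings put Nefl, Nefm and Nefh above 0 and Ina below 0, whereas Prph is at 0.83 on the deposited values and at -0.63 relative to the neuron marker list.

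The 5 genes were also set against 8 general neuronal markers, in a comparison chosen after the data were seen. The markers did not move as one, with 4 called higher, 3 called lower and a median difference of 1.52, and their summed level was 7678 to 8075 CPM in adult and 5207 to 5718 CPM in embryonic samples. Snap25, of the machinery that fuses synaptic vesicles, had 2329 ± 176 CPM in adult and 216 ± 15.9 CPM in embryonic cortex (SD, n = 3 and n = 4). Relative to the mean of these markers, the differences were 3.66 for Nefh, 1.47 for Nefl, 0.53 for Nefm and -2.25 for Ina, each in its earlier direction. This scaling lowers the difference of every gene by the same amount. Which directions held therefore follows from the size of the earlier differences and is no separate test. That of Prph turned to -0.63 (adjusted p = 0.0168 in limma). Markers of cell classes known for dense neurofilaments went both ways. Genes of the large projection neurons of layer 5 summed to 338 to 380 CPM in adult and to 593 to 681 CPM in embryonic samples, with 2 of 6 higher and 4 lower, and Bcl11b the highest in the adult. All 5 genes of parvalbumin interneurons, led by the potassium channel gene Kcnc1, were higher, with sums of 482 to 503.5 CPM in adult and 115 to 122 CPM in embryonic samples. Kcnc1 made up most of the embryonic sums, with 90.7 ± 5.12 CPM, against 223 ± 6.62 CPM in adult cortex (SD, n = 4 and n = 3). Pvalb itself had 948 to 1199 reads in adult and 0 to 2 reads in embryonic samples. The part of these classes in the neurofilament levels was not tested.

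Glia and neighbouring tissue differed between the stages as well. All 7 oligodendrocyte genes were higher in the adult, where their sum was 5216, 7465 and 4157 CPM in samples 1 to 3, against 59.6 to 65.8 CPM in the embryonic samples. Adult sample 2, which had the most oligodendrocyte mRNA, was also the highest adult sample for Nefh and Prph but the lowest for Nefl. All 6 astrocyte, 5 microglial, 5 choroid plexus and 6 striatal genes were higher too, as were 6 of 7 of hypothalamus and thalamus. The highest in each adult list were Slc1a2, Csf1r, Ttr, Penk and Prkcd, and Mbp among oligodendrocyte genes. Astrocyte genes summed to 4021 to 4842 CPM in adult and 175 to 181 CPM in embryonic samples, and microglial genes to 252 to 253 CPM in adult and 23.9 to 27.4 CPM in embryonic samples. Sums ran from 586 to 722 CPM for choroid plexus and from 584 to 650 CPM for striatum in adult samples, against 0.922 to 2.12 CPM and 67.8 to 74.3 CPM in embryonic samples. Sums for hypothalamus and thalamus ran from 90.8 to 161 CPM in adult and from 41.9 to 48.3 CPM in embryonic samples. The part of cells from these regions in the adult levels was not tested.

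Exon data addressed whether the transcripts themselves changed between the stages. Each deposited exon value stands for a whole number, the reads of the gene divided by those of the exon and rounded, so a higher number is a smaller share. The rounding was checked on exons of other genes and is assumed for these 9. None of the 9 exons was called at an adjusted p under 0.05 in limma, against 1.98% of the 86407 exon rows tested, and none had an unadjusted p under 0.05. The exon test with diffSplice also called none. Adjusted p ran from 0.568 to 0.903 in limma.

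The first exon of Nefl, which starts at 68701941 on chromosome 14 in the mm9 build of the files, had the number 2 in all 7 samples, and so did the third exon of Ina, at 47097825 on chromosome 19. A number of 2 stands for a share between 40 and 66.7%, so changes inside that range could not be seen. The last exon of Nefm, at 68737602 on chromosome 14, had the number 1 in all 7 samples, which stands for a share of at least 66.7%. The second exon of Nefl, at 68704031, had the numbers 6, 5 and 5 in adult samples, against 4, 4, 5 and 6 in embryonic samples. The groups overlapped, and the difference of the deposited values was 0.29 (95% interval -0.27 to 0.84, adjusted p = 0.647 in limma).

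The short second exon of Nefm, at 68740878, gave the finest reading. Its numbers were 16, 19 and 20 in adult samples, against 22, 19, 19 and 19 in embryonic samples, which is a share of about 5% at both stages, and the difference was -0.30 (95% interval -1.18 to 0.57, adjusted p = 0.784 in limma). The second exon of Ina, at 47096323, had the numbers 10, 11 and 12 in adult samples, against 11, 12, 12 and 11 in embryonic samples, and the groups overlapped. In the remaining exons of Nefl and Nefm the whole number differed by at most 1 between any of the samples. Exon numbers follow the GENCODE M21 transcripts. They were matched by the spacing of exon starts for 7 exons. Nefl exon 1 and Nefm exon 3 were numbered only from their place next to a matched exon, since their spacing differed from GENCODE (2090 against 2111 bases and 3276 against 3538 bases). Reads across a junction may count in more than 1 exon, so shares need not sum to 100%. The exon tables held no row of Nefh or Prph, whose transcripts were not analysed here.

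**Figure D4:**
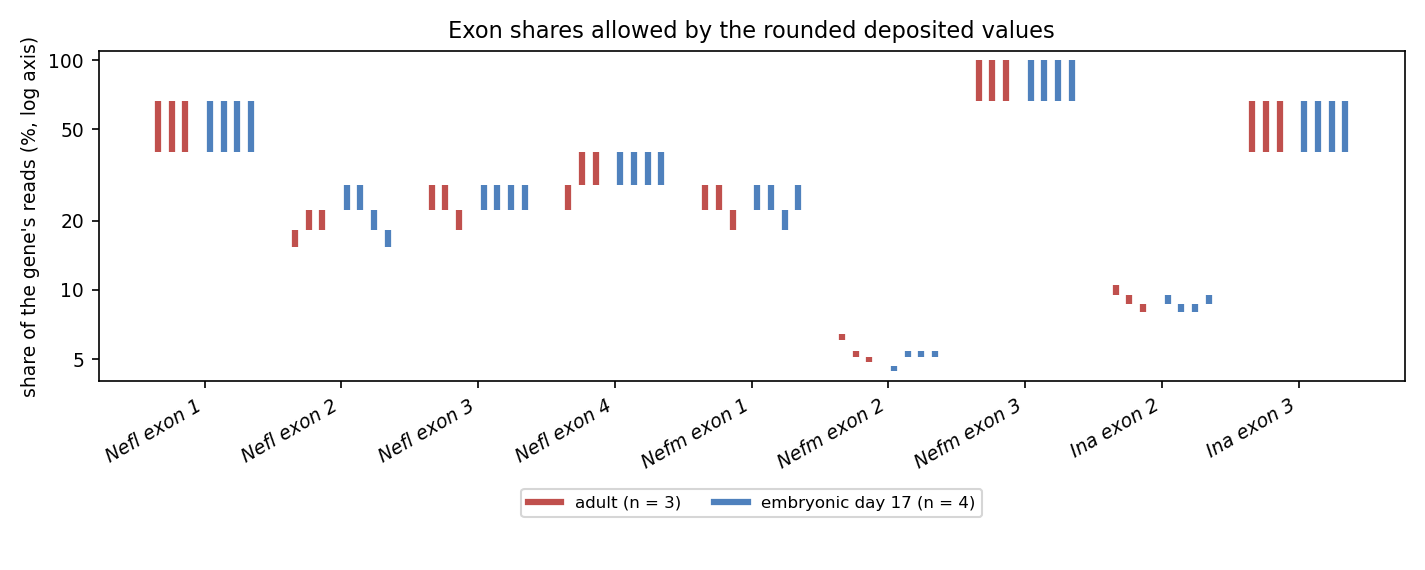
Share of the gene's reads in each exon allowed by the rounded deposited value, in percent on a log axis, with 1 bar per sample, adult in red left of embryonic in blue. Bars run from the lowest to the highest share that gives the whole number, and for Nefm exon 3 they stop at 100%. No exon shows a gap between the adult and the embryonic bars.

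Other genes of the intermediate filament system were taken as lists by role. Genes counted as risen or fallen are those called at an adjusted p under 0.05 in limma. Of all tested rows, 35.8% were called higher and 33.9% lower, and the counts of each list stand against these shares. Of 9 other intermediate filament genes, 6 rose and 3 fell in the adult, with a median difference of 1.76, against 0.03 over all tested rows and 2.0 over the 5 neuronal genes. Gfap, the filament of astrocytes, rose most, with 238 ± 25.3 CPM in adult and 2.59 ± 0.925 CPM in embryonic cortex (SD, n = 3 and n = 4; difference 6.35, adjusted p = 2.02e-12 in limma). Krt8, a keratin of simple epithelia, was higher too, at a low level, with 0.779 ± 0.216 CPM in adult and 0.0367 ± 0.0451 CPM in embryonic cortex. Nes, the nestin filament of neural progenitors, fell to 14.5 ± 4.12 CPM in adult, against 191 ± 23.3 CPM in embryonic cortex, and Vim, the vimentin of radial glia, fell to 32.0 ± 2.43 CPM, against 207 ± 21.9 CPM.

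Of 15 genes for kinases, phosphatases and a partner that act on neurofilament proteins, 11 rose and 4 fell, with a median difference of 0.52. Cdk5r2, the p39 activator of the tail kinase Cdk5, rose to 376 ± 61.6 CPM in adult, against 43.0 ± 5.0 CPM in embryonic cortex (difference 3.18, adjusted p = 1.55e-11 in limma). Its partner activator p35, from Cdk5r1, fell to 287 ± 23.3 CPM, against 469 ± 37.3 CPM (difference -0.62, adjusted p = 1.25e-05 in limma). The kinase Rock2 rose, by 1.52, and the stress kinase gene Mapk8 fell by 0.96. The phosphatase subunits Ppp2ca and Ppp2r1a were among those called higher, by 0.18 and 0.25, and both calls were lost when samples were centred on their medians. The call of Ppp2ca was also lost without adult sample 1 or 2 and without embryonic sample 1 or 2, with adjusted p from 0.103 to 0.129 in limma. It was lost as well without the filter (adjusted p = 0.088 in limma), without the trend (adjusted p = 0.0942 in limma) and with voom on recovered counts (adjusted p = 0.0845 in limma).

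Among motors and adaptors that carry neurofilaments along the axon, 8 of 10 rose and 2 fell, with a median difference of 0.74. Kif5a, the neuronal kinesin heavy chain reported to move neurofilaments, rose to 3417 ± 253 CPM in adult, against 479 ± 23.8 CPM in embryonic cortex (difference 2.92, adjusted p = 1.32e-12 in limma), a difference close in size to that of Nefl. The light chain Klc2 rose by 1.64. The dynein subunits Dync1h1 and Dync1i1, of the motor that runs back to the cell body, fell by 0.58 and 0.39.

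Of 4 linkers in the table, which tie filaments to one another, to microtubules or to the membrane skeleton, 2 rose and 2 fell. Plec, the plectin linker, rose to 383 ± 4.39 CPM in adult, against 43.2 ± 4.07 CPM in embryonic cortex (difference 3.21), and Dst rose by 0.42. Macf1 fell by 0.81 and Spna2, the spectrin gene now named Sptan1, by 0.18. The call of Spna2 was lost without adult sample 1 or 2 and without embryonic sample 1, 2 or 3, with adjusted p from 0.0539 to 0.107 in limma, and also without the filter (adjusted p = 0.626) and without the trend (adjusted p = 0.0692).

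Of 10 genes for the turnover of filament proteins, 6 rose, 2 fell and 2 were not called, of which Uchl1 passed without adult sample 3 (adjusted p = 0.0266 in limma) or embryonic sample 3 (adjusted p = 0.0454 in limma). The other, the chaperone gene Dnajb6, had a difference of -0.07, and of -0.25 after centring on the medians, where it was called lower (adjusted p = 0.0057 in limma). The small heat shock protein gene Hspb8 rose by 3.68, and Capn1, a calcium-activated protease that cuts neurofilaments, rose to 21.5 ± 1.10 CPM in adult, against 2.38 ± 0.623 CPM in embryonic cortex (difference 3.01). Trim2, a ubiquitin ligase of the light chain, fell by 0.32, and its call was lost without the filter on low values (adjusted p = 0.0819 in limma). Of 5 RNA-binding proteins reported to bind neurofilament mRNA, 2 rose and 3 fell. Tardbp (TDP-43) fell by 0.93, Elavl4 had a difference of -0.34 and also passed, and Rgnef (now Arhgef28) and Sod1 rose, by 1.19 and 0.38. The call of Sod1 was lost without adult sample 3 (adjusted p = 0.058 in limma) and after centring on the medians (adjusted p = 0.14 in limma). It was lost as well without the filter (adjusted p = 0.0933 in limma) and without the trend (adjusted p = 0.0522 in limma). The call of Elavl4 was lost without any 1 of adult samples 2 and 3 and embryonic samples 1, 2 and 4, with adjusted p from 0.0592 to 0.111 in limma, and also without the filter (adjusted p = 0.151) and without the trend (adjusted p = 0.0882).

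**Figure D5:**
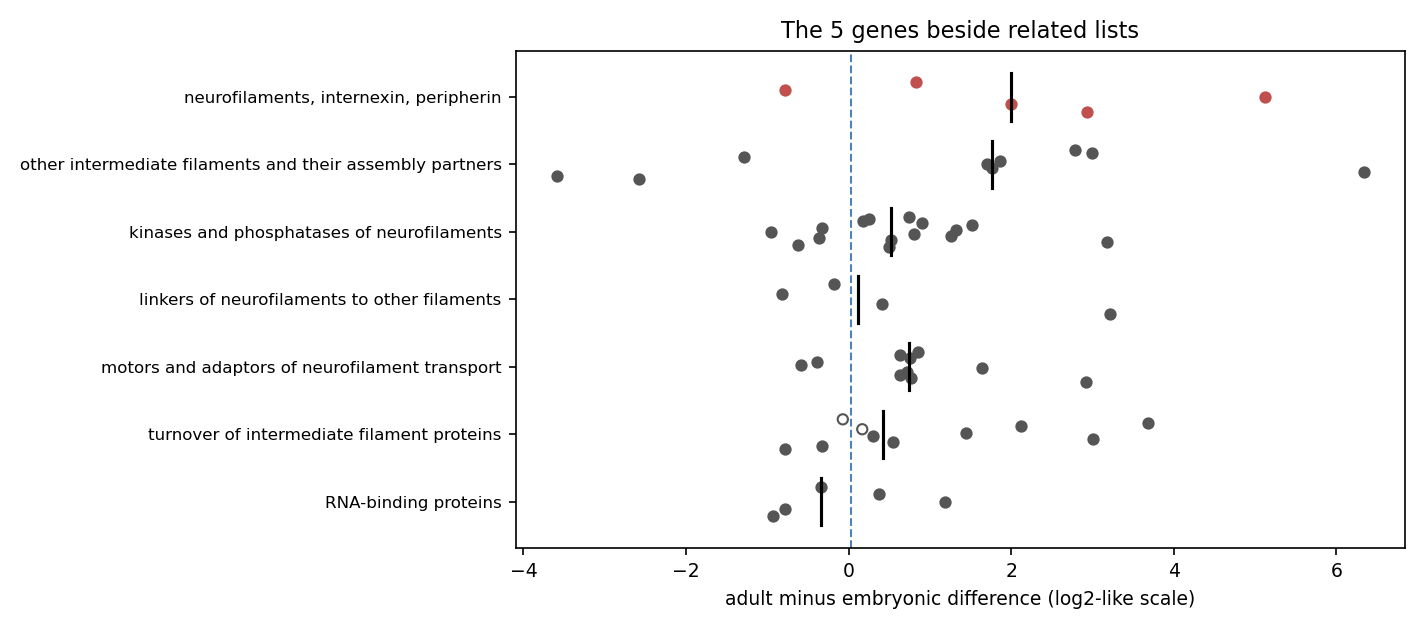
Adult minus embryonic difference of each gene on the log2-like scale, for the 5 genes (red) and for 6 lists of related genes (grey). Filled points have an adjusted p under 0.05 in limma and open points do not, black ticks are list medians, and the dashed line is the median of all tested rows at 0.03. The 5 genes span from -0.79 for Ina to 5.12 for Nefh.

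Genes whose profile over the 7 samples lay closest to each member were found by the root-mean-square distance between values centred on each gene's own mean, over 22828 rows. Nearest to Nefl were Slc35f3, Pgbd5 and the potassium channel gene Kcnh3, at distances of 0.0643 to 0.0803. Nearest to Nefm were the serotonin receptor gene Htr5b, the kinase anchor gene Akap5 and Speg, at 0.0711 to 0.0843. Nefh had no neighbour as close, and its nearest were Il34, a ligand of the microglial receptor CSF1R, the heat shock protein gene Cryab and the F-box gene Fbxo2, at 0.129 to 0.161. Nearest to Ina were the cap-binding protein gene Ncbp1, Ubp1 and 2010321M09Rik, at 0.0134 to 0.0317, and nearest to Prph were Scand1, Trib1 and Gm5417, at 0.109 to 0.123. With 2 groups of samples, closeness mostly reflects a like difference between the stages, and it is given as a description.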

How the data were processed

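Variance-stabilized gene values on a log2-like scale were deposited, 1 column per sample, and exon values were deposited as a variance-stabilized score of 1 over a ratio, per the file headers. TopHat 1.0.13, HTSeq 0.5.3p3 and the mm9 build are named in the submitters' processing notes, and no source used here names the tool that stabilized the values. Each column steps through 1 shared function of whole numbers, so reads were recovered. Beyond the lowest steps, which are whole by construction, 99.31 to 99.58% of gene values per sample came within 0.1 of a whole number. The rounding was checked on 119035 exon values, from genes within a set range of reads and with whole numbers large enough to test it. All were reached by rounding the gene's reads over whole exon reads, and no exon of the 5 genes was among them. Totals were 18443947 to 23606205 reads. Pairs of samples within a group differed more than counting gives, with chi-square over its degrees of freedom at 5.15 to 19.2.

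Stages were compared, adult minus embryonic, with limma 3.58.1 (R 4.3.3), lmFit and eBayes with a trend, all 7 samples, no covariate, two-sided, with Benjamini-Hochberg adjustment over all tested rows and a threshold of 0.05. The filter dropped rows that sat at the column minimum in over 3 samples of 7. The permutation p for ratios is the smaller tail doubled. The exon fit was run on single exons because the values are already relative to the gene. Fits were tested on simulated data. The 5 genes and all lists were chosen with earlier results of these data known. From each related list, the 2 called genes with the largest rise and the 2 with the largest fall were named, from each marker list the highest adult gene, and for each member the 3 nearest rows. Elavl4, Ppp2ca, Ppp2r1a, Uchl1, Capn2, Phox2a, Isl1 and Pvalb were named after their values were seen. Some genes that this rule names are not reported here. Of 119 listed genes, 3 were found by an older symbol and 2, Eppk1 and Slc18a3, were not found by symbol.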

Additional observations from a re-analysis of the deposited data

Results flagged for a closer look

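Of 67 values checked among the 4 embryonic samples, 5 had 1 sample far from the other 3, and chance flags about 1 group in 20 where values vary without steps. Exon values come from rounded whole numbers, where 3 samples with the same number and 1 with another are readily flagged. That rate therefore does not hold for the exons. The exons concerned both belong to Nefm. Nefm exon 2 had a deposited value of 9.19 in embryonic sample 1, against 8.45 to 8.52 in the others, for whole numbers of 22 and 19. Nefm exon 1 had 4.22 in embryonic sample 3, against 3.77 to 3.79 in the others, for whole numbers of 5 and 4. Among related and marker genes, Rgnef had -4.18 in embryonic sample 3, against -4.49 to -4.45 in the others. Mbp had -4.49 in embryonic sample 4, against -4.32 to -4.29 in the others, and Slc1a2 had -1.95 in embryonic sample 3, against -1.85 to -1.83 in the others. None of the gene values of the 5 intermediate filament genes stood apart in this way.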

How the results depend on the processing

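All 5 gene differences kept their direction and their call under 12 alternatives (no filter, no trend, centring on sample medians, voom on recovered counts, a replicate block, and leaving out each sample in turn). They ranged from 2.75 to 2.98 for Nefl, 1.82 to 2.10 for Nefm, 4.94 to 5.38 for Nefh, -0.97 to -0.75 for Ina and 0.63 to 1.07 for Prph, whose adjusted p ran from 0.000544 to 0.0411 in limma. Prph was 0.63 without adult sample 2 and 1.07 without adult sample 3. Centring shifted the median of all rows by -0.18. Relative to the neuron markers, chosen after seeing the data, Prph turned to -0.63 and 2 of the 5 genes were called lower. This scaling takes the same amount from every difference, and that of Prph was the smallest above 0. Why the markers differed between the stages was not tested.

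Replicate numbers were not used to pair the samples in the main fit. Deviations of same-numbered samples correlated by 0.00879 to 0.0567, and those of differently numbered samples by -0.0475 to 0.0617. Such small correlations over few samples cannot show whether same-numbered samples were paired. With the replicate block the differences were 2.94, 1.96, 5.05, -0.79 and 0.74 for Nefl, Nefm, Nefh, Ina and Prph, with no call changed, and exon calls over all rows numbered 293, against 1178 without it over the same 6 samples, since embryonic sample 4 has no partner and adds nothing to the blocked differences. All 7 samples gave 1711, and 4185 in diffSplice. Leaving out 1 sample gave 1075 to 2157. No alternative called an exon of the 3 genes. Nefl exon 1 turned to -0.21 in diffSplice, Ina exon 2 ranged from -0.27 to 0.017 and Nefm exon 1 from -0.10 to 0.16 with 1 sample left out, all uncalled.

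The count of RNA-binding genes called higher was 1 rather than 2 without the filter, without the trend and after centring, and 1 to 2 with 1 sample left out. Linkers called lower numbered 1 rather than 2 without the filter or the trend, and 1 to 2 with 1 sample left out. Turnover genes called lower numbered 1 rather than 2 without the filter, and 3 after centring, where those called higher numbered 5 rather than 6. RNA-binding genes called lower numbered 2 rather than 3 without the filter or the trend. These counts moved through Sod1 and Elavl4 among RNA-binding genes, Spna2 among linkers, and Trim2, Dnajb6 and Capn2 among turnover genes. The call of Capn2 was lost after centring (adjusted p = 0.214 in limma). Why these calls depend on the setting was not tested. Depth limits Prph at both stages and Nefh in the embryo, and rounding limits the exon shares.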
